A study of Mus musculus with 28 samples.

Results

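The insulin-like growth factors, their receptors and their binding proteins were followed through WT, KEAP1-KO and KEAP1-NRF2 double-knockout (DKO) 3LL cells and through the tumors these cells formed in mice. The 10 genes looked for were the ligands Igf1 and Igf2, the receptors Igf1r and Igf2r, and the binding proteins Igfbp2 to Igfbp7, each found by its symbol in the processed expression table. Of these 10 genes, 9 had a row among the 43143 rows of the table, and Igfbp2 had no row. A gene row stood for 5 of them (Igf1, Igf2, Igfbp3, Igfbp6 and Igfbp7), and a single transcript stood for the other 4 (Igf1r, Igf2r, Igfbp4 and Igfbp5). A further 7 transcript rows without a symbol belonged to Igfbp4 or Igf1r by their GENCODE identifiers and were read beside the named rows.

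IGF1 and IGF2 are small secreted hormones that drive growth and survival through the IGF1 receptor, a tyrosine kinase that signals through insulin receptor substrates to PI3K and AKT. The IGF2 receptor, which is also the cation-independent mannose 6-phosphate receptor, has no kinase. It takes IGF2 into the cell for degradation and carries newly made enzymes to lysosomes. The binding proteins hold the ligands in blood and tissue, extend their life and either keep them from the receptor or hand them over when proteases cut the binding protein. In tumors these genes are shared out among cancer cells, endothelium, fibroblasts and macrophages, so that a tumor's level of one of them is a sum over cell types.

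The series held 28 libraries in 7 groups of 4. 3LL is a mouse Lewis lung carcinoma line. The KEAP1-KO cells came from a CRISPR-edited single colony with a homozygous insertion in Keap1, and the DKO cells from a single colony of KEAP1-KO cells edited in Nrf2 (Nfe2l2) as well, so that the DKO cells carry the KEAP1 deletion too. KEAP1 marks the transcription factor NRF2 for destruction, and cells without KEAP1 hold active NRF2. Tumors were grown under the skin of 6-week-old male albino C57BL/6 mice for 10 days. Experiment A had WT cells in the left flank and KEAP1-KO cells in the right flank of the same mice, and Experiment B had KEAP1-KO cells on the left and DKO cells on the right. Genotype and flank therefore change together within each experiment, and genotype and clone change together everywhere: they cannot be told apart. The mice kept their own immune system and stroma, and the tumors were sequenced whole. Nothing in the labels says that the 4 libraries of cells of a genotype came from separate cultures, so the p-values measure the spread between these libraries, which may be technical.

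Library depth, as reads recovered from the values, ran from 4222376 to 7524282. For Keap1 itself, KEAP1-KO minus WT was -1.43 ± 0.13 (SE) on the log2 scale in tumors and -1.86 ± 0.07 in cells. Of 8 NRF2 target genes, 7 were higher and 1 (Hmox1) lower in the KEAP1-KO tumors of Experiment A than in the WT tumors, and 7 were lower in DKO than in KEAP1-KO tumors. The row of Nfe2l2 itself, a non-coding transcript, was not called between DKO and KEAP1-KO, with 0.22 ± 0.21 in cells (adjusted p = 0.65) and -0.00068 ± 0.14 in tumors, so the DKO label is checked by the NRF2 targets and not by the edited gene. Markers of leukocytes and macrophages moved with genotype in the tumors. The 5 leukocyte markers summed to 1971 to 2448 normalized counts in the WT tumors, 508 to 583 in the KEAP1-KO tumors of Experiment A, 767 to 970.0 in those of Experiment B and 1447 to 2130.4 in the DKO tumors, against 5.24 to 51.5 in cells. All 5 were lower in Experiment A and all 5 higher in DKO tumors of Experiment B. Of 11 macrophage markers, 10 were lower in Experiment A and 6 higher in Experiment B, and 6 were also higher in KEAP1-KO tumors of Experiment B than of Experiment A. Of 9 fibroblast markers tested, 2 were lower in Experiment A and 3 higher in Experiment B, and of 10 endothelial markers 0 and then 2 (Cldn5 and Esam) were called, both lower in DKO tumors. Skeletal muscle markers summed to 534, 247 and 376 normalized counts in DKO tumors 1 to 3 and to 35.0 in DKO tumor 4, while the other tumors lay between 17.3 and 73.5. DKO tumors 1 to 3 thus stood apart from DKO tumor 4, and differences called with DKO tumors are given with DKO tumor 4 alone as well. This alternative was chosen after seeing the data and takes the lone tumor to vary like the other groups. A fit with 1 tumor in a group can lose a call by that alone, so only the size of the difference is given.

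The sequences around the start sites of Igf2r, Igfbp4, Igfbp6 and Igfbp3 are shown because these are the members with a row called between DKO and KEAP1-KO tumors. All 14 start-site windows of the 10 genes were matched in RefSeq (build GRCm38.p6), each reaching from 250 bases before to 50 bases after the start. The rows measured need not start there. The Igf2r row lies 68.4 kb from its window, and the abundant Igfbp4 row and the Igfbp6 gene row begin past the end of theirs. Capitals mark CACGTG in Igf2r, the TATAAA motif or its reverse complement and CCAAT in Igfbp4 and Igfbp6, and nothing in Igfbp3, where none of the motifs searched was found. Sequences run 5′ to 3′ on the strand of the gene.
Igf2r promoter, chr17:12769657-12769956, minus strand: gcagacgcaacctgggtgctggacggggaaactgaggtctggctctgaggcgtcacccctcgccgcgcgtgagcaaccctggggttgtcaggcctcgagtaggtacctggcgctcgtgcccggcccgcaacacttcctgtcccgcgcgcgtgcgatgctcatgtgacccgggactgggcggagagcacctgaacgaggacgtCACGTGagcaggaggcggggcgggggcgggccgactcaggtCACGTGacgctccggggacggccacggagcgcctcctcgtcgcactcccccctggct
Igfbp4 promoter, chr11:99040994-99041293, plus strand: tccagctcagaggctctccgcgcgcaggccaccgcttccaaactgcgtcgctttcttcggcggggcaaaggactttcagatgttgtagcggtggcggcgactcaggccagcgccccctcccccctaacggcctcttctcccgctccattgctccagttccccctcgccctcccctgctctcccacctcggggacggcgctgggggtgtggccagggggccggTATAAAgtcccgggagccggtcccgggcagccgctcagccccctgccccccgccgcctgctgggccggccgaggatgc
Igfbp6 promoter, chr15:102143936-102144235, plus strand: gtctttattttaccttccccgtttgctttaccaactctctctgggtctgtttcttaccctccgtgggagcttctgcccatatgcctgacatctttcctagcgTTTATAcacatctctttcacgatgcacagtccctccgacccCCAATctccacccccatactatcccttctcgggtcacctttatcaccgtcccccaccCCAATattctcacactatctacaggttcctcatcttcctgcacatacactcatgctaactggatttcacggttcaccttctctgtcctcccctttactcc
Igfbp3 promoter, chr11:7213874-7214173, minus strand: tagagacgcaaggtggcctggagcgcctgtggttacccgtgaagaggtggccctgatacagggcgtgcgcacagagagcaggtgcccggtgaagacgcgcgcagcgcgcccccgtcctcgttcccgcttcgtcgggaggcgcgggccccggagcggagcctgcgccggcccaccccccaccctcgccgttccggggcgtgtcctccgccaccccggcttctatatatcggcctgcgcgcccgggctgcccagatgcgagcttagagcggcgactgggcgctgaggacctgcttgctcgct

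Both strands were searched for TGACNNNGC, the core letters of the antioxidant response element that NRF2 binds, for TATAAA, for ACGTG, for CCAAT and, after the Igf2r window had been seen, for CACGTG, which reads the same on both strands and contains ACGTG on each. The Igf2r window held CACGTG at -48 and -7 from the start. At least 1 copy stood in 7.15% of 32851 mouse windows of the same length, and 2 or more in 0.594%. TATAAA stood at -28 in Igfbp4 and on the opposite strand at -148 in Igfbp6, against 13.6% of all windows, and CCAAT stood at -107 and -50 in Igfbp6, against 37.4%. TGACNNNGC was found in 2 of the 14 windows of the 10 genes, 1 of Igfbp2 and 1 of Igf2, against 12.4% of all windows, and ACGTG in 4 of 14 against 19.6%. A match describes letters in a window and is neither a bound site nor a cause. No match says nothing of sites elsewhere.

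Values are given as deposited, as log2(normalized count + 4), so that 2.0 stands for 0 reads and differences of low rows are understated. Rows were tested where at least 4 libraries of the fit reached 5 normalized counts, and a row was called where the adjusted p from limma over all rows tested was under 0.05. Counts of members called cover the rows that carry a member's symbol. The abundant Igfbp4 row carries none and is not in them, although it was called in all 4 comparisons of DKO with another genotype, in tumors and in cells. Levels are compared between groups for 1 gene and not between genes, since the rows cover unequal lengths.

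**Figure D1:**
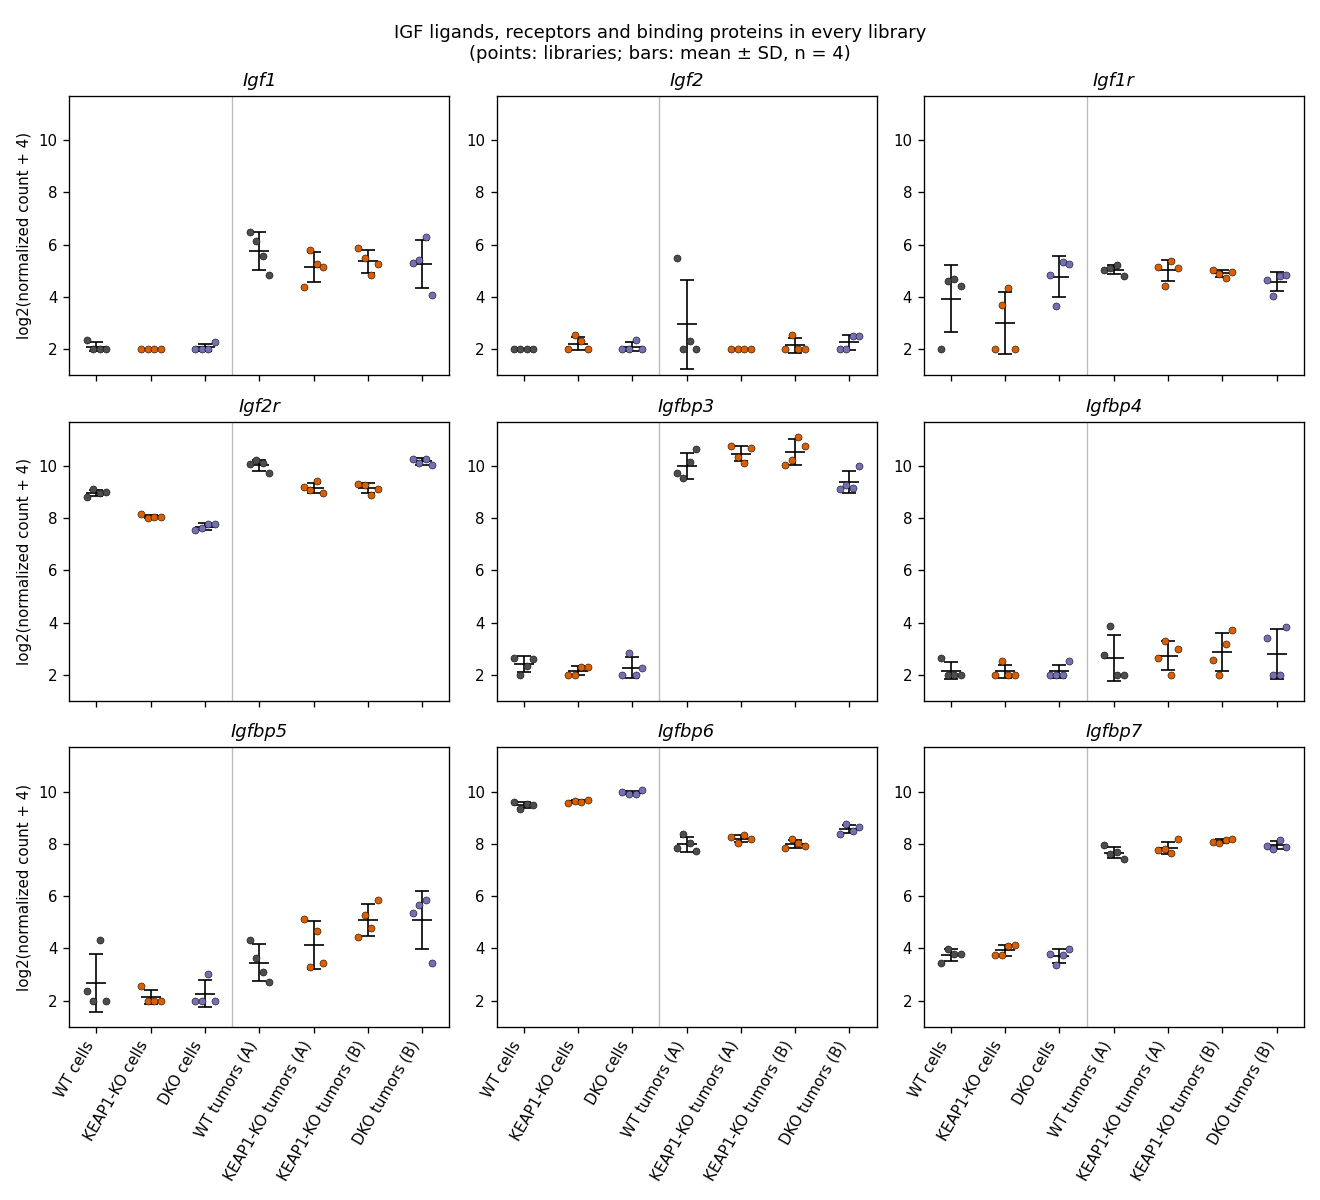
Levels of the 9 genes with a row, as log2(normalized count + 4) on the vertical axis, in each of the 7 groups on the horizontal axis. Points are libraries and bars are mean ± SD (n = 4). Igfbp3, Igfbp7 and Igf1 lay far higher in every tumor than in any library of cells, Igfbp6 lay higher in cells, and Igf2r fell from WT to KEAP1-KO in both cells and tumors.

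Igf1, the ligand that liver and stroma make, was near 0 in the cancer cells and present in all tumors, without a called difference between genotypes of tumors. It had 1 read in WT cell library 1, 1 read in DKO cell library 4 and 0 reads in the other 10 libraries of cells. In tumors its levels were 6.48, 6.12, 5.55 and 4.84 in WT tumors 1 to 4, and 4.37, 5.78, 5.24 and 5.14 in KEAP1-KO tumors 1 to 4 of Experiment A. Equal numbers were not taken as the same mouse. In Experiment B they were 5.88, 5.49, 4.83 and 5.24 in KEAP1-KO tumors and 5.29, 5.40, 6.29 and 4.07 in DKO tumors. The groups of tumors overlapped throughout. KEAP1-KO tumors were 0.62 ± 0.44 (SE) lower than WT tumors on the log2 scale, with a 95% interval from -1.55 to 0.31 and an adjusted p of 0.44. DKO minus KEAP1-KO was -0.10 ± 0.44 (interval -1.03 to 0.83, adjusted p = 0.94), so differences within these intervals could not be detected at this spread. On the linear scale Igf1 was at least 52.6-fold higher in the 8 KEAP1-KO tumors than in the KEAP1-KO cells, taking 3 reads over the group of cells as the floor. With 1 read in each of the other groups of cells, the ratio was 198 in WT (95% counting interval 35.2 to 7852) and 168 in DKO (29.8 to 6680).

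Igf2, the fetal growth factor expressed from the paternal chromosome, had at most 2 reads in 27 of the 28 libraries. WT tumor 1 was the exception, with 46 reads and a level of 5.50, where WT tumors 2 to 4 lay between 2.0 and 2.31. H19, the neighboring imprinted RNA that is expressed from the maternal chromosome, was at 4.77 in the same tumor, and Igf2bp3, which binds IGF2 mRNA, was at 5.03, the highest values of these rows among WT tumors. The fibroblast markers of WT tumor 1 summed to 14368 normalized counts, against 5490 to 8440 in the other WT tumors. The part of these cells in the Igf2 level was not tested. Igf2 passed the filter on low values in no fit, and no test of it was made.

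Igf1r, the signaling receptor, showed no called difference between genotypes by its named transcript, a retained-intron form of 2050 bases. It lay between 4.03 and 5.38 in the 16 tumors. In cells it was uneven, at 2.0, 4.61, 4.68 and 4.40 in WT, 2.0, 3.67, 4.32 and 2.0 in KEAP1-KO and 4.83, 3.63, 5.35 and 5.25 in DKO libraries. The 3 libraries at 2.0 held 0 reads of a transcript that had up to 36.7 normalized counts elsewhere, while the other Igf1r rows were present in them. When all rows of Igf1r were summed, the cells became even, with means of 5.93 ± 0.20 (SD, n = 4) in WT, 5.78 ± 0.07 in KEAP1-KO and 6.07 ± 0.34 in DKO. The summed gene was then higher in tumors than in cells of the same genotype, by 0.88 ± 0.15 (SE; adjusted p = 1.2e-05) in WT, 0.99 ± 0.13 (1.6e-07) in KEAP1-KO and 0.53 ± 0.15 (0.0031) in DKO, with adjusted p-values from limma over the 18284 genes tested. With DKO tumor 4 alone the DKO value was 0.75. No genotype comparison of the summed gene was called, with differences between -0.21 and 0.29.

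Igf2r differed between genotypes in tumors and in cells. Its row is a non-coding transcript of 803 bases in 4 exons, of which 496 bases lie in coding sequence of the gene. In tumors it was at 10.07, 10.21, 10.09 and 9.71 in WT and at 9.17, 9.08, 9.42 and 8.98 in KEAP1-KO of Experiment A. In Experiment B it was at 9.33, 9.25, 8.88 and 9.12 in KEAP1-KO and at 10.27, 10.11, 10.27 and 10.03 in DKO. All 8 KEAP1-KO tumors lay below all WT and DKO tumors. KEAP1-KO tumors were lower than WT tumors by 0.86 ± 0.12 (SE; adjusted p = 1.3e-04), the only row with a member's symbol called of the 8 tested in Experiment A, where 13.1% of all rows were called (5.61% higher and 7.49% lower). DKO tumors were higher than KEAP1-KO tumors by 1.03 ± 0.12 (adjusted p = 4.4e-05), 1 of 3 rows with a member's symbol called of 8 in Experiment B (the abundant Igfbp4 row was called besides), against 8.86% of all rows (4.22% higher and 4.64% lower). With DKO tumor 4 alone the difference was 0.89. DKO and WT tumors, which come from separate experiments, differed by 0.15 ± 0.12 (interval -0.11 to 0.41, adjusted p = 0.53).

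In cells the order of Igf2r was another one. It was at 8.82, 9.11, 8.95 and 9.0 in WT, at 8.15, 8.01, 8.05 and 8.05 in KEAP1-KO and at 7.53, 7.64, 7.77 and 7.77 in DKO libraries. No pair of the 3 genotypes overlapped. KEAP1-KO cells were lower than WT cells by 0.91 ± 0.08 (SE; adjusted p = 4.4e-06), the only row with a member's symbol called of 4 tested, where 15.5% of rows were called (8.13% higher and 7.33% lower). DKO cells were lower again than KEAP1-KO cells by 0.39 ± 0.08 (adjusted p = 0.0064), 1 of 2 rows with a member's symbol called of 4 (and the abundant Igfbp4 row besides), against 8.83% of rows (3.98% higher and 4.85% lower), and both comparisons share the KEAP1-KO libraries. The KEAP1-KO minus WT difference was not shown to differ between tumors and cells (0.04 ± 0.15, interval -0.27 to 0.36, adjusted p = 0.93). The DKO minus KEAP1-KO difference did, by 1.42 ± 0.15 (adjusted p = 1.4e-06), with Igf2r higher in DKO tumors and lower in DKO cells. With DKO tumor 4 alone it was 1.28. By group mean, the order from the lowest was DKO cells, KEAP1-KO cells, WT cells, KEAP1-KO tumors of either experiment, WT tumors and DKO tumors. Neighbors in this order that were not shown to differ were the KEAP1-KO tumors of both experiments (-0.02 ± 0.12, adjusted p = 0.99) and WT and DKO tumors, and the step from WT cells to KEAP1-KO tumors was not tested.

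The leukocyte markers, given above, were also lower in all 8 KEAP1-KO tumors than in all WT and DKO tumors, and the part of leukocytes in the Igf2r levels of the tumors was not tested. In cells these markers summed to at most 51.5 normalized counts. As in all whole tumors, fewer cells of a type and less RNA per cell cannot be told apart. Airn, the antisense RNA that silences the paternal copy of Igf2r, starts within the gene. The near edge of its annotated span lies 40.0 kb from the Igf2r row measured here, so that the annotated spans do not overlap. Airn averaged 7.23 ± 0.23 (SD, n = 4) in KEAP1-KO and 8.08 ± 0.25 in DKO tumors of Experiment B, and 6.44 ± 0.32 and 6.69 ± 0.18 in KEAP1-KO and DKO cells.

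**Figure D2:**
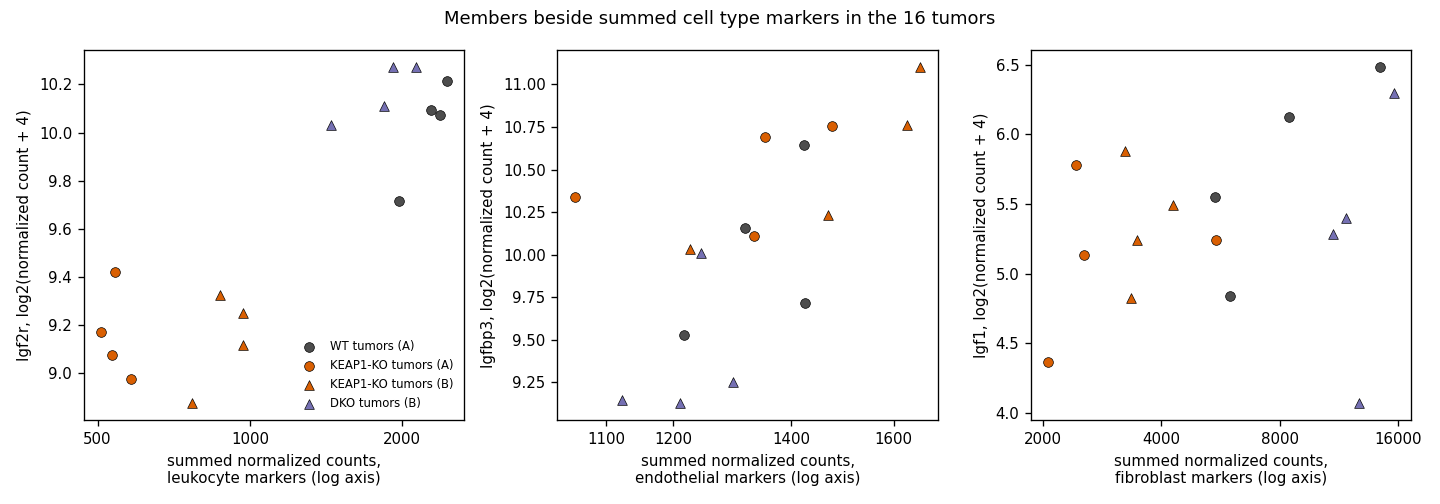
Igf2r, Igfbp3 and Igf1, as log2(normalized count + 4), against summed normalized counts of leukocyte, endothelial and fibroblast markers (log axes) in the 16 tumors, 1 point per tumor. The KEAP1-KO tumors lie low on both axes for Igf2r, the DKO tumors lie low for Igfbp3 at endothelial sums between 1124 and 1297, and Igf1 shows no split by genotype. Other tumors had endothelial sums as low: 1056 in KEAP1-KO tumor 2 of Experiment A, 1217 in WT tumor 2 and 1227 in KEAP1-KO tumor 1 of Experiment B.

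Among the binding proteins, Igfbp3, the main carrier of IGFs in blood and a product of endothelium and fibroblasts in many tissues, was abundant in tumors and near 0 in cells. Cells held 0 to 3 reads per library, in all 5 in WT, 2 in KEAP1-KO and 4 in DKO. Tumors were at 9.71, 9.53, 10.15 and 10.65 in WT and 10.76, 10.34, 10.11 and 10.69 in KEAP1-KO of Experiment A. In Experiment B they were at 10.03, 10.23, 11.10 and 10.76 in KEAP1-KO and 9.13, 9.25, 9.15 and 10.01 in DKO. The DKO tumors lay below the KEAP1-KO tumors of their experiment, by a narrow gap between DKO tumor 4 and KEAP1-KO tumor 1. WT and KEAP1-KO tumors overlapped. DKO minus KEAP1-KO was -1.15 ± 0.27 (SE; adjusted p = 0.014), while KEAP1-KO minus WT was 0.46 ± 0.27 (interval -0.12 to 1.05, adjusted p = 0.33) and DKO minus WT was -0.63 ± 0.27 (adjusted p = 0.18). The difference in Experiment B was larger in DKO tumors 1 to 3: with DKO tumor 4 alone it was -0.52. The call was kept when any 1 tumor was left out, with adjusted p-values from 0.0052 to 0.0498.

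Cldn5, a tight-junction gene of endothelium, was lower in the same DKO tumors by 1.05 ± 0.26 (SE, adjusted p = 0.016, and -0.59 with DKO tumor 4 alone). It was the row most like Igfbp3 over the 16 tumors (Pearson r = 0.94, a description over libraries that share tissue and depth), and had at most 1 read in each library of cells. The 10 endothelial markers summed to 1227 to 1657 normalized counts in Experiment B's KEAP1-KO tumors and to 1124 to 1297 in the DKO tumors, and 2 of the 10 were called. The part of endothelium in the Igfbp3 level was not tested. Skeletal muscle markers moved with it as well, being high in the 3 DKO tumors with the lowest Igfbp3, and their part was not tested either. On the linear scale the ratio of Igfbp3 in tumors to cells was 796 in WT (95% counting interval 341 to 2453), 3262 in KEAP1-KO (903 to 26940) and 715 in DKO (279 to 2625). The DKO minus KEAP1-KO difference was 1.28 ± 0.36 lower in tumors than in cells (adjusted p = 0.049), with the cells at the floor of the scale. That value follows from the tumors, and the call was lost with a replicate block (adjusted p = 0.055) and in 11 of 16 fits that left out 1 library. With DKO tumor 4 alone the value was -0.66.

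Igfbp4, which inhibits IGF action until the protease PAPP-A cuts it, gave different answers by row. The protein-coding transcript that carries the symbol (489 bases) had 0 to 12 reads per library and no called difference. The abundant row was the non-coding transcript ENSMUST00000130530 (785 bases in 4 exons, 413 of them in coding sequence). That row was at 7.71, 8.12, 8.0 and 7.98 in WT, 7.43, 7.85, 7.40 and 8.03 in KEAP1-KO and 8.55, 8.15, 8.41 and 8.70 in DKO cells. Tumors were at 7.64, 8.07, 8.0 and 7.87 in WT and 7.52, 7.31, 8.0 and 7.28 in KEAP1-KO of Experiment A, and at 7.46, 7.82, 7.41 and 7.46 in KEAP1-KO and 8.87, 8.82, 8.97 and 9.25 in DKO of Experiment B. All DKO tumors lay above all other tumors, and the DKO cells above all KEAP1-KO cells. DKO exceeded KEAP1-KO by 1.44 ± 0.15 (SE; adjusted p = 1.7e-05) in tumors and by 0.78 ± 0.16 (adjusted p = 0.0071) in cells, and DKO tumors exceeded WT tumors by 1.08 ± 0.15 (adjusted p = 2.6e-04). DKO tumor 4 alone gave 1.71 over KEAP1-KO and 1.35 over WT tumors. DKO cells exceeded WT cells by 0.50 ± 0.16 (adjusted p = 0.046). KEAP1-KO minus WT was -0.37 ± 0.15 in tumors (adjusted p = 0.15, and 0.016 without KEAP1-KO tumor 3) and -0.28 ± 0.16 in cells (adjusted p = 0.30). Whether the DKO difference was larger in tumors than in cells was tested directly and not called (0.66 ± 0.23, adjusted p = 0.13).

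The other Igfbp4 rows were sparse. ENSMUST00000177105 lay between 2.58 and 3.27 in KEAP1-KO and between 3.35 and 4.56 in DKO tumors of Experiment B. It was higher in DKO by 1.18 ± 0.29 (SE, adjusted p = 0.016), a call lost without DKO tumor 1 or 4. With DKO tumor 4 alone the difference was 1.65. With the 4 rows summed, Igfbp4 was 1.45 ± 0.15 higher in DKO than in KEAP1-KO tumors (adjusted p = 2.9e-06 over 17388 genes) and 0.79 ± 0.15 higher in cells (adjusted p = 0.0026). DKO tumor 4 alone gave 1.78 in tumors. The summed difference was 0.66 ± 0.22 larger in tumors than in cells (adjusted p = 0.063), and 0.99 larger with DKO tumor 4 alone. Unlike Igfbp3 and Igfbp7, the summed gene was as high in cells as in tumors for WT (tumors minus cells 0.04 ± 0.16, adjusted p = 0.84) and KEAP1-KO (-0.04 ± 0.14, adjusted p = 0.81), and 0.59 ± 0.16 higher in tumors for DKO (adjusted p = 0.0020; 0.92 with DKO tumor 4 alone).

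**Figure D3:**
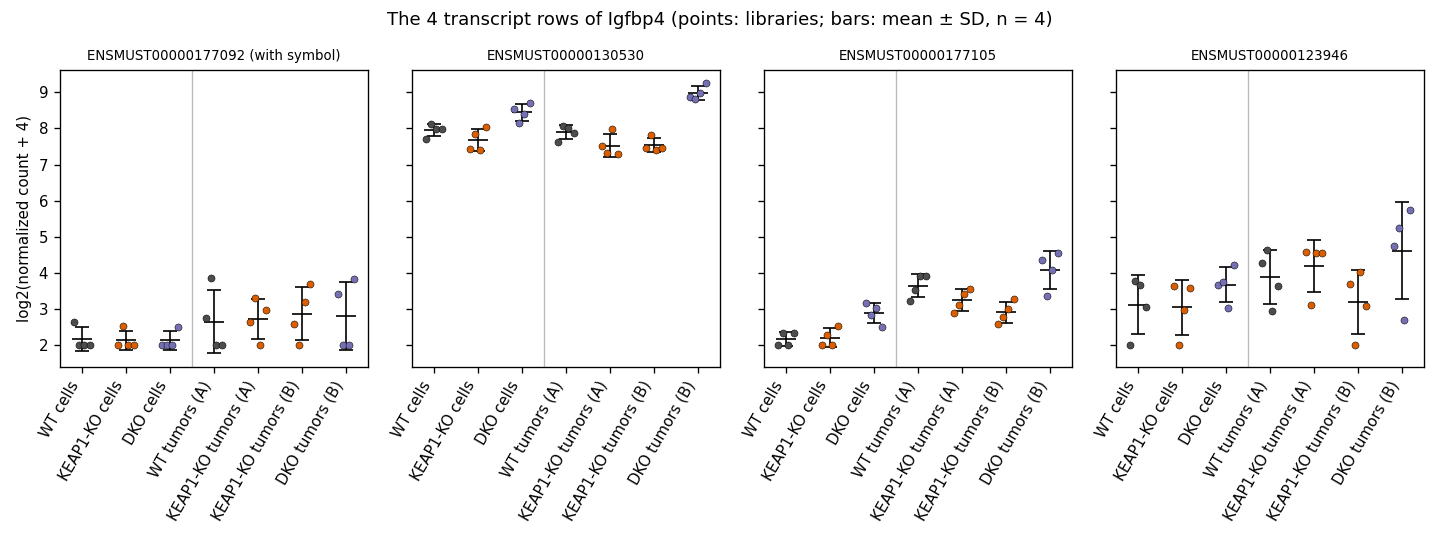
The 4 transcript rows of Igfbp4 in the 7 groups, as log2(normalized count + 4), with points for libraries and bars for mean ± SD (n = 4). The row with the symbol stays near 2, while ENSMUST00000130530 lies between 8.82 and 9.25 in DKO tumors and between 7.28 and 8.07 in the other tumors.

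Igfbp6, a binding protein that prefers IGF2 over IGF1, was the only row with a member's symbol called lower in tumors than in cells. Cells were at 9.59, 9.32, 9.54 and 9.48 in WT, 9.56, 9.65, 9.59 and 9.70 in KEAP1-KO and 9.99, 9.92, 9.92 and 10.06 in DKO. In Experiment A tumors were at 7.83, 8.37, 8.05 and 7.72 in WT and 8.28, 8.02, 8.35 and 8.19 in KEAP1-KO, and in Experiment B at 7.85, 8.17, 8.04 and 7.93 in KEAP1-KO and 8.39, 8.76, 8.50 and 8.64 in DKO. DKO libraries were the highest in cells and in tumors, above every other library of their kind. DKO exceeded KEAP1-KO by 0.57 ± 0.13 (SE; adjusted p = 0.00995) in tumors and by 0.34 ± 0.06 (adjusted p = 0.0031) in cells, and these differences were not shown to differ (0.23 ± 0.15, adjusted p = 0.56). DKO tumors exceeded WT tumors by 0.58 ± 0.13 (adjusted p = 0.0086), the only row with a member's symbol called there of 8 tested (the abundant Igfbp4 row was called besides), against 10.6% of all rows (4.57% higher and 5.99% lower). DKO tumor 4 alone gave 0.65 over KEAP1-KO tumors and 0.65 over WT tumors. KEAP1-KO did not pass the test against WT in tumors (0.22 ± 0.13, adjusted p = 0.34) or in cells (0.14 ± 0.06, adjusted p = 0.16). In DKO against WT cells, Igfbp6 was higher by 0.49 ± 0.06 (adjusted p = 1.1e-04) and Igf2r lower by 1.29 ± 0.08 (adjusted p = 1.9e-07), 2 rows with a member's symbol called of 4 (and the abundant Igfbp4 row besides) against 17.7% of rows (8.46% higher and 9.2% lower).

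Igfbp7, a secreted protein of vessel walls that binds IGFs weakly, separated tumors from cells and did not separate genotypes. It ranged from 3.37 to 4.12 in the 12 libraries of cells and from 7.41 to 8.21 in the 16 tumors. KEAP1-KO minus WT tumors was 0.17 ± 0.13 (SE; interval -0.09 to 0.44, adjusted p = 0.45) and DKO minus KEAP1-KO tumors was -0.16 ± 0.13 (interval -0.43 to 0.11, adjusted p = 0.55). The ratio of tumors to cells on the linear scale was 21.1 in WT (95% counting interval 15.0 to 30.4), 22.1 in KEAP1-KO (16.7 to 29.9) and 26.0 in DKO (18.9 to 36.8). Igfbp7 and the summed endothelial markers were both far lower in cells, where the latter summed to 14.1 to 95.2 normalized counts, and the part of endothelium was not tested.

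Igfbp5, a binding protein that sits in the extracellular matrix, was sparse. Its row, a non-coding transcript of 4281 bases, had 0 to 15 reads in cells. Tumors were at 4.33, 3.65, 3.10 and 2.71 in WT, 5.13, 3.29, 4.66 and 3.43 in KEAP1-KO of Experiment A, 4.46, 5.30, 4.77 and 5.86 in KEAP1-KO of Experiment B and 5.37, 5.65, 5.84 and 3.44 in DKO. The KEAP1-KO tumors of Experiment B lay above all WT tumors, and those of Experiment A overlapped both. No genotype comparison was called. DKO minus WT tumors was 1.63 ± 0.55 (SE; adjusted p = 0.074), a value that passed without DKO tumor 4 (2.17, adjusted p = 0.011) and was -0.013 with DKO tumor 4 alone.

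**Figure D4:**
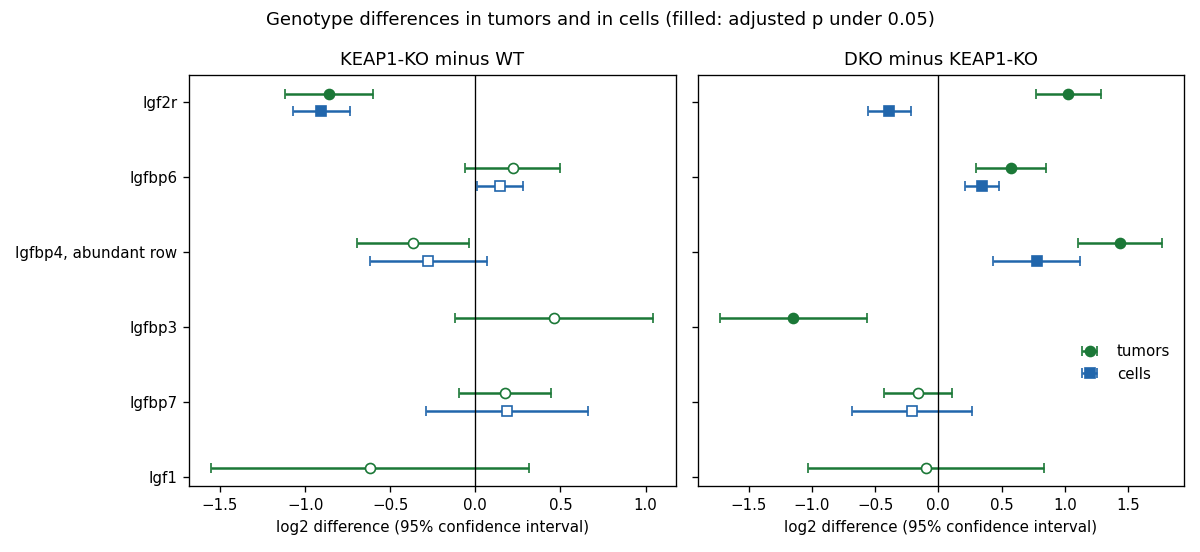
Log2 differences with 95% confidence intervals for KEAP1-KO minus WT (left) and DKO minus KEAP1-KO (right) in tumors (circles) and cells (squares), with filled symbols for an adjusted p under 0.05. Igf2r lies below 0 on the left in both, and on the right at 1.03 in tumors and -0.39 in cells; Igfbp6 and the abundant Igfbp4 row lie above 0 on the right in both, and Igfbp3 lies at -1.15 in tumors.

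The KEAP1-KO tumors of both experiments gave a check on the spread between experiments. None of the 8 rows with a member's symbol was called (limma), and Igfbp7 alone had an unadjusted p under 0.05 (0.27 ± 0.13 higher in Experiment B, adjusted p = 0.65). Over all rows, 56 of 34215 were called, 0.164% (0.152% higher and 0.0117% lower), and 2632 had an unadjusted p under 0.05. For the KEAP1-KO minus WT difference between tumors and cells, 0 of 8 members were called and 0 had an unadjusted p under 0.05, while 5.38% of all rows were called (1.5% higher and 3.88% lower) and 6079 of 37246 had an unadjusted p under 0.05. For the DKO minus KEAP1-KO difference between tumors and cells, Igf2r was called, as were 3.67% of all rows (2.12% higher and 1.55% lower). Igfbp3 was called too, but it passed the filter through the tumors with its cells at the floor of the scale, so its value restates the difference between tumors.

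Between tumors and cells of the same genotype, the median of all rows was itself shifted by 0.20, 0.17 and 0.23 in WT, KEAP1-KO and DKO. In WT, 4 members were higher (Igfbp3, Igfbp7, Igf1 and Igf2r) and 1 lower (Igfbp6) of 8, against 38.8% of rows called (24.7% higher and 14.1% lower). In KEAP1-KO, Igfbp5 and the named Igf1r row were higher as well, 6 higher and 1 lower against 44% of rows (27% higher and 16.9% lower), and in DKO 5 were higher and 1 lower against 43.5% (27.6% higher and 15.9% lower). Igfbp3, Igf1 and Igfbp5 passed the filter on low values through the tumors, so their counts here describe the filter as well as the data. Igf2r was higher in tumors by 1.05 ± 0.11 (SE) in WT, 1.09 ± 0.09 in KEAP1-KO and 2.49 ± 0.11 in DKO (adjusted p = 8.9e-09, 2.8e-10 and 5.6e-16). For Igfbp6, tumors minus cells was -1.49 ± 0.11, -1.52 ± 0.09 and -1.40 ± 0.11 (adjusted p = 1.9e-11, 6.0e-13 and 4.5e-11). With DKO tumor 4 alone the DKO values were 2.35 for Igf2r, -1.33 for Igfbp6 and 1.18 for Igfbp5. All of these differences of Igf2r and Igfbp6 exceed the shift of the median.

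Of 16 genes for the insulin receptor, adaptors and the PI3K pathway, 14 had a tested row in tumors. In KEAP1-KO against WT tumors, 1 was higher and 2 lower, where 13.1% of all rows were called (median of the 14, -0.10, against -0.03 over all rows). Irs2, an adaptor of both receptors, was higher by 0.51 ± 0.14 (SE), and Pik3r1, the regulatory subunit of PI3K, and Foxo1, a transcription factor that AKT holds in the cytoplasm, were lower by 0.75 ± 0.11 and 0.84 ± 0.24. In DKO against KEAP1-KO tumors, 1 was higher and 3 lower, where 8.86% of all rows were called (median 0.02, against 0.00). Pik3r1 was higher by 0.79 ± 0.11, and Insr, the insulin receptor, and Shc1, an adaptor to RAS, were lower by 0.80 ± 0.24 and 0.70 ± 0.21. With DKO tumor 4 alone these were 0.65, -0.41 and -1.03. In cells 12 were tested. KEAP1-KO against WT cells had 2 higher and 2 lower, against 15.5% of all rows called, with Grb14, an adaptor that inhibits the insulin receptor, higher by 0.82 ± 0.12 and Pik3r1 lower by 0.56 ± 0.08. DKO against KEAP1-KO cells had 4 higher and 3 lower, against 8.83% of all rows called, with Grb14 higher by 1.01 ± 0.12, Insr lower by 1.12 ± 0.24 and Irs2 lower by 0.60 ± 0.07. The medians of the 12 were 0.07 and -0.14 in these comparisons, against 0.02 and -0.03 over all rows of the cells. The row of Pik3r1 is a retained-intron transcript, and that of Grb14 is a non-coding transcript.

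Pappa2 and Stc1 were called in both experiments. They belong to the cofactors and proteases of the binding proteins, of which 8 of 12 genes had a row, 6 tested in tumors and 5 in cells. Pappa2 encodes a protease that cuts IGFBP3 and IGFBP5. It averaged 6.81 ± 0.08 (SD, n = 4) in WT and 5.98 ± 0.21 in Experiment A's KEAP1-KO tumors, and 5.73 ± 0.24 in KEAP1-KO and 7.12 ± 0.14 in DKO tumors of Experiment B. The differences were -0.83 ± 0.14 (SE; adjusted p = 4.8e-04) and 1.38 ± 0.14 (adjusted p = 6.5e-06), and in cells KEAP1-KO was lower than WT by 1.01 ± 0.14 (adjusted p = 2.3e-04). The DKO minus KEAP1-KO difference was 1.18 ± 0.19 larger in tumors than in cells (adjusted p = 3.0e-04). With DKO tumor 4 alone these were 1.18 and 0.97. Stc1, a secreted inhibitor of the pappalysin proteases, was higher by 0.73 ± 0.23 (adjusted p = 0.045) in KEAP1-KO than in WT tumors. It was lower by 0.92 ± 0.23 (adjusted p = 0.017) in DKO than in KEAP1-KO tumors, where DKO tumor 4 alone gave -0.44. In cells Stc1 was higher in DKO than in KEAP1-KO, by 1.30 ± 0.23 (adjusted p = 0.0029). There it passed the filter on low values through the DKO cells alone, at 3.86 to 4.28. WT cells lay between 2.0 and 2.62 and KEAP1-KO cells between 2.52 and 2.92. Htra3, a secreted serine protease, was higher by 0.76 ± 0.21 (adjusted p = 0.023) in KEAP1-KO than in WT tumors of Experiment A. Over this list, 2 were higher and 1 lower of 6 in Experiment A, against 13.1% of all rows called, and 1 and 1 in Experiment B, against 8.86%. In cells 0 were higher and 1 lower of 5 between KEAP1-KO and WT, against 15.5% of all rows called. Between DKO and KEAP1-KO cells these were 1 and 0, against 8.83%. The 1 is Stc1, so that count describes the filter as well as the data. Medians over the genes tested were -0.31 and 0.13 in Experiments A and B and 0.27 and 0.20 in the comparisons of cells.

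Of 9 other genes whose proteins carry an IGF-binding-protein domain, 7 had a row and 5 were tested in tumors. Kazald1 was the only one of the 5 called in each experiment (13.1% and 8.86% of all rows were), lower in KEAP1-KO than in WT by 0.86 ± 0.20 (SE; adjusted p = 0.0091) and higher in DKO than in KEAP1-KO by 0.81 ± 0.20 (adjusted p = 0.018; 1.09 with DKO tumor 4 alone, adjusted p = 0.11). In cells, KEAP1-KO minus WT was -0.72 ± 0.12 for Kazald1, and DKO cells did not return toward WT. Kazald1 averaged 7.01 ± 0.20 (SD, n = 4) in WT, 6.29 ± 0.10 in KEAP1-KO and 5.87 ± 0.16 in DKO cells. Ccn1, a matrix protein also called CYR61, was higher in KEAP1-KO than in WT cells by 1.81 ± 0.06 and higher again in DKO cells by 0.59 ± 0.06. In tumors of Experiment A it averaged 9.63 ± 1.02 (SD, n = 4) in WT and 9.19 ± 0.45 in KEAP1-KO. The KEAP1-KO minus WT difference in tumors minus that in cells was -2.25 ± 0.43 (SE; limma, adjusted p = 0.0014). Medians over the genes tested here were -0.44 and -0.06 in Experiments A and B. Of a list that joins imprinted genes, H19 among them, with genes of IGF2 mRNA-binding proteins, 5 were tested in tumors and 2 in cells. Mest, an imprinted gene, averaged 7.63 ± 0.12 (SD, n = 4) in WT tumors, 7.63 ± 0.32 and 8.53 ± 0.24 in KEAP1-KO tumors of Experiments A and B and 6.96 ± 0.30 in DKO tumors. It was lower in DKO than in KEAP1-KO tumors by 1.57 ± 0.17 (adjusted p = 1.7e-05), and by 1.37 with DKO tumor 4 alone. Its KEAP1-KO tumors differed between experiments as well, by 0.90 ± 0.17 (adjusted p = 0.0493). DKO minus WT tumors was -0.67 ± 0.17 (adjusted p = 0.018, and -0.47 with DKO tumor 4 alone). Cdkn1c, an imprinted inhibitor of cyclin-dependent kinases, was 0.52 ± 0.14 below the WT level in KEAP1-KO cells (adjusted p = 0.024), and no other gene of that list was called in Experiment A, Experiment B or these comparisons of cells.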

How the data were processed

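RNA from cultured cells and whole tumors was depleted of rRNA and sequenced as directional paired reads. The authors quantified transcripts with Salmon on the Galaxy server against GENCODE mouse transcripts, and deposited log2 values. The methods describe TPM, but the deposited log2 values behave as log2(normalized count + 4): the lowest is 2, and low values return whole reads within a tolerance of 0.05. The normalization is not given in the sources used here. The design assumed log2 values, and no count test was run. The labels' extraction protocol names livers, in conflict with the sample titles, which were used. The table mixes 34021 transcript and 9122 gene rows, and 18509 carry a symbol. Transcript identities were taken from GENCODE M21, which held 96.95% of the transcript identifiers.

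Rows reaching 5 normalized counts in 4 or more libraries of a fit were kept, and group means were compared by limma (version 3.58.1, R 4.3.3; empirical Bayes with a trend), with Benjamini-Hochberg adjustment over all rows and a threshold of 0.05. One fit held the 16 tumors (34215 rows), one the 12 libraries of cells (29744 rows) and one all 28 (37246 rows) for contrasts between tumors and cells. Genes were named by membership in the gene list, and other pathway genes, at most the 3 largest differences per list and comparison, where called. The members and lists were chosen with earlier results of these data known. The code was tested on simulated data with 200 changed rows. Depth, a median of 5619805 reads, limits rows near 2. Counting intervals (95%, exact binomial) and the floor of 3 reads cover counting error only. Alternatives changed the pseudocount, filter, scaling, trend, summing of rows, samples in the fit and replicate block, or left out libraries. Igfbp2 had no row and was not analysed here, and no protein sequence was used here. One gene counted in a pathway list is not reported here by name.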

Additional observations from a re-analysis of the deposited data

Results flagged for a closer look

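The cutoff for a library far from the other 3 of its group flags about 1 in 20 by chance where values are continuous. Such libraries appeared in 14 of 67 member rows and groups tested. In well-covered rows these were Igfbp3 in DKO tumor 4, the highest of its group at 10.01 (1202 reads), and the Igfbp4 row ENSMUST00000130530 in KEAP1-KO tumor 2 of Experiment B, highest at 7.82 (239 reads). Igf2 in WT tumor 1 stood apart at 5.50 with 46 reads.

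The remaining flags came from rows of few reads in cells or tumors. Where the other libraries of a group lay at the floor of 2.0, a library with any reads was flagged. The number of flags therefore cannot be set against the chance rate. The named Igfbp4 row had 2 reads each in WT cell library 1 (2.65), KEAP1-KO cell library 2 (2.52) and DKO cell library 4 (2.51), with 0 reads in the others of those groups. Igfbp5 was at 4.34 in WT cell library 3 (15 reads), 2.55 in KEAP1-KO cell library 1 and 3.03 in DKO cell library 3. Igf1 was at 2.36 in WT cell library 1 and 2.28 in DKO cell library 4, with 1 read each. Igf2 was at 2.34 in DKO cell library 3 and 2.55 in KEAP1-KO tumor 2 of Experiment B. The Igf1r transcript with the symbol was lowest in WT cell library 1, at 2.0 with 0 reads.

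Differences between tumors and cells in the DKO minus KEAP1-KO comparison were called for Igf2r (1.42, higher in tumors) and for Igfbp3 (-1.28, lower in tumors). Igfbp3 had 0 to 3 reads in each library of cells, so its value restates the difference between tumors, and its call was lost in 11 of 16 fits without a library.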

How the results depend on the processing

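Counts of called members stayed within 1.5 times the reported count in 194 of 215 alternative values, and single rows kept direction and call in 991. Single rows lost the call in 42, gained it in 5 and changed sign in 13. These counts include fits with DKO tumor 4 alone, where a call can be lost through the single tumor. Igf2r kept every call listed above under every alternative run. For DKO minus KEAP1-KO tumors, the differences with DKO tumor 4 alone are given above, and no call was read from them. For DKO minus WT tumors, where 1 was called, summing the rows of a gene gave 3. Leaving out libraries gave 1 to 2 (2 without DKO tumor 4, when Igfbp5 was called as well). DKO minus KEAP1-KO cells fell from 2 to 1 without the trend, when Igfbp6 missed the threshold (adjusted p = 0.051), as it did with all 28 libraries in the fit (0.058). The difference between tumors and cells in DKO minus KEAP1-KO fell from 2 members to 1 with a pseudocount of 1, no filter, no trend, quantile normalization or the replicate block. It fell to between 1 and 2 when libraries were left out. Igfbp3 was the member lost, with adjusted p-values of 0.25, 0.054, 0.072, 0.12 and 0.055, and it was called in 5 of 16 fits without a library.

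Signs changed only in values that were not called. The named Igfbp4 row for DKO minus KEAP1-KO tumors (-0.06) became 1.45 with rows summed and 0.96 with DKO tumor 4 alone, and ranged from -0.40 to 0.22 when libraries were left out. Igf1 in the same comparison (-0.10) ranged from -0.44 to 0.30. Igfbp5 for DKO minus WT tumors became -0.013 with DKO tumor 4 alone. The Igf2r difference between tumors and cells in KEAP1-KO minus WT (0.04) became -0.079 with quantile normalization and ranged from -0.058 to 0.11 when libraries were left out. The Igfbp4 row ENSMUST00000130530 in DKO minus WT cells (adjusted p = 0.046) was called in 2 of 8 fits without a library. The causes of these changes were not tested.

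Deviations of libraries with the same replicate number had correlations from -0.032 to 0.033, and the numbers were not taken as pairs. In DKO against WT cells, every library correlated most with its own number, though weakly (0.011, 0.026, 0.033 and 0.024). With the replicate block, 1 member was called in Experiment A, 3 in Experiment B, 1, 2 and 2 in the comparisons of cells (KEAP1-KO with WT, DKO with KEAP1-KO and DKO with WT), 0 for the KEAP1-KO difference between tumors and cells and 1 for the DKO difference. No paired analysis was possible because the groups compared share no mice between experiments or between tumors and cells, for the KEAP1-KO tumors of both experiments, DKO against WT tumors and tumors against cells.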

Other observations

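By Pearson correlation of log2 values, a description over libraries that share tissue, depth and genotype, the rows most like each member differed between all libraries and tumors alone. Over the 28 libraries, Igfbp3 ran with Trp53i11, Dll4 and Inhbb (r = 0.997, 0.996 and 0.995), Igfbp7 with Epas1, Ptprb and Lama4 (0.994, 0.993 and 0.993), and Igf1 with Postn (0.98). Igf2r ran with Tgfbi (0.96) and Igfbp6 with Hadhb (0.98). Among the 16 tumors, Igf2r ran with C78197 (0.98), Chil3 (0.97) and Ifit2 (0.96). Chil3, a secreted protein of macrophages, was at 0 reads in all 12 libraries of cells and averaged 6.81 ± 0.36 (SD, n = 4) in WT, 3.78 ± 0.49 and 3.76 ± 0.54 in KEAP1-KO tumors of Experiments A and B, and 6.92 ± 0.49 in DKO tumors.

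H19 was at 4.86 in DKO tumor 3 and 4.77 in WT tumor 1, and at 0 reads in all 12 libraries of cells. Igf2 had at most 2 reads in DKO tumor 3. Airn was at 0 reads in WT cell library 4 and in 1 WT tumor, and between 6.08 and 8.42 elsewhere.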
